A study of Mus musculus with 6 samples.

Results

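The water and urea handling genes of the kidney described here were 7 aquaporins (Aqp1, Aqp2, Aqp3, Aqp4, Aqp6, Aqp7 and Aqp11), the vasopressin receptor Avpr2 and the urea transporter genes Slc14a1 and Slc14a2. They were chosen by gene name, without use of any measured value, and all 10 names were found among 37325 gene names on the array, with 21 of its 56605 probes. The samples were left kidneys of male mice of 8 weeks that had fasted for 20 h. They were 3 mice of wild-type genotype (WT, C57BL/6J per the methods) and 3 of a line that lacks the selenium-binding protein gene Selenbp1 (Selenbp1-KO, below KO). The methods do not give the background strain of the KO line. No agent was given, and the fast was common to both genotypes. Each kidney was read on 1 single-colour Agilent array, and the arrays keep their label numbers: WT 2, WT 3 and WT 4, and KO 1, KO 2 and KO 3. Per the methods the C57BL/6J males were bought and the KO line had been made earlier, so that genotype and breeding origin cannot be told apart. Per the methods the left kidney was removed whole, and how much cortex, medulla and papilla each extract held is not given.

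Vasopressin released by the pituitary binds Avpr2 on the basolateral side of principal cells in the collecting duct. The receptor raises cAMP, vesicles carrying Aqp2 fuse with the apical membrane, and the transcription of Aqp2 rises over longer times. Water that enters through Aqp2 leaves through Aqp3 and Aqp4 and is drawn out by the salt and urea of the medulla, to which the urea transporters contribute, while Aqp1 carries the bulk water of the proximal tubule and descending thin limb.

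The probes are 60 bases long. A few are printed here because their position in the transcript can be read from the files alone: the Aqp2 and Aqp11 probes cover more of the mm9 genome than their own length and so cross an exon junction, and the Aqp6 probe ends at a stop codon, given in capitals. The Aqp2 probe spans chr15:99412578-99413554 on the plus strand, with 917 bases of intron. The Aqp11 probe spans chr7:104875158-104877482 on the minus strand, with 2265 bases of intron. The Aqp6 probe, designed on DQ826418, lies at chr15:99434265-99434324 on the plus strand.
Aqp2 probe: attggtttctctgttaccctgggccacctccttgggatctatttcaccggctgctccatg
Aqp11 probe: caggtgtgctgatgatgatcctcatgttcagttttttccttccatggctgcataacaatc
Aqp6 probe: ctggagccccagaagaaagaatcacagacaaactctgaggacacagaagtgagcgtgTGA

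The 250 bases before the Aqp2 start are shown here (GRCm38.p6, chr15:99578806-99579055, plus strand, from RefSeq). GATA factors and cAMP signalling are known to act on this promoter. Only transcripts of GATA factors and of cAMP signalling genes are given below, and neither cAMP nor factor protein was measured. Capitals mark a match to TGACG, the core of the cAMP response element, at -211, and a match to GATAA at -202, each read here on the opposite strand.
Aqp2 promoter: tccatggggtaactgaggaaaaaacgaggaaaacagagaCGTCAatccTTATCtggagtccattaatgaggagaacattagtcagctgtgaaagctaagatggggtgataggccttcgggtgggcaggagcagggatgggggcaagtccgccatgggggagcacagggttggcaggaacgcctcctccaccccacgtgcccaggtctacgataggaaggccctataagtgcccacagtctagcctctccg
On either strand, TGACG was found in 17.8% and GATAA in 22.6% of 32851 mouse promoter windows of this length. Of 8 windows that matched 7 of the genes (Aqp7 has a pair), 1 held TGACG and 3 held GATAA. These matches are letters only and no binding was measured.

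Signals are given as log2 of the array's processed signal relative to its 75th percentile, so that 0 is the 75th percentile of that array and 1 unit is a doubling. That percentile ran from 477 to 751 over the arrays, and 51.8 to 55.5% of spots were well above background with none saturated. Selenbp1 itself read 7.07, 7.02 and 7.02 in WT and 4.13, 3.98 and 4.10 in KO, and fell by 2.96 (SE 0.10, limma adjusted p = 0.0021). It stayed well above background on all KO arrays, and whether its probe lies in the deleted stretch was not checked here. Over all probes the median difference, KO minus WT, was 0.11, against 0.0033 over the 28513 bright probes, those with all arrays of at least 1 genotype well above background. WT 2 and WT 3 lay on one side of the slide, by the positions in the file headers, and WT 4 lay with all KO arrays on the other side. Where WT 4 is left out, genotype and slide side cannot be told apart.

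No gene of the group passed the test between genotypes on its representative probe, the one with the highest mean over the 6 arrays. The call was limma's unadjusted p under 0.05, the threshold of the study's methods, which 7.98% of all 56097 tested probes passed and 5.65% of the bright probes. By single probes, 1 of 21 passed, an Aqp4 probe that was lower in KO, where 1.51% of all probes were called lower. That Aqp4 probe is bright, and the share called lower was not counted over the bright probes alone. None of the 21 passed after Benjamini-Hochberg adjustment over all probes, and on none did the genotypes fail to overlap, as they did on 13.3% of all probes. Of the 10 genes, 6 were higher in KO and 4 lower, with a median difference of 0.01, where 49.2% of bright probes were lower. Relative to the median of all probes 4 were higher and 6 lower, but over the bright probes that median was only 0.0033. All 10 representative probes were well above background on every array. Among the 21 probes this held for 18, and the remaining ones were a Slc14a2 probe measured on 4 arrays and an Aqp4 and an Aqp6 probe that were not well above background on any array.

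**Figure D1:**
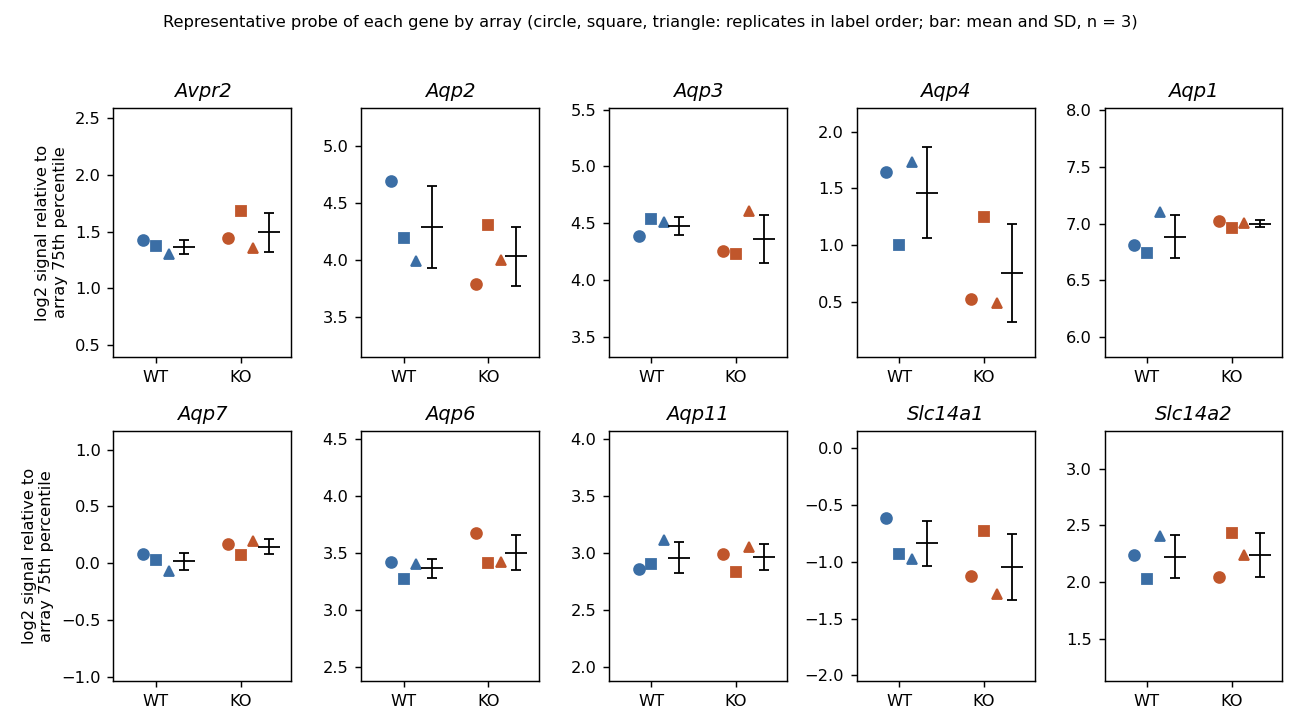
Signal of the representative probe of each gene on each array (y axis, log2 relative to the array's 75th percentile, the same span of 2.2 units in every panel), with the mean and SD of each genotype (n = 3); symbols give replicates in label order and do not pair WT with KO arrays. WT and KO points overlap in all 10 panels, and Aqp4 is the panel with the widest gap between means.

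Avpr2, the receptor that starts the response, read 1.43, 1.37 and 1.30 in WT and 1.45, 1.68 and 1.35 in KO (NM_019404, chrX:71139472-71139531, mm9). KO 2 was the highest array and the other KO arrays lay within or just above the WT range. The difference was 0.13 (SE 0.12, 95% interval -0.17 to 0.43, limma adjusted p = 0.632), or at most 1.35-fold higher by the interval's upper bound.

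Aqp2, the water channel that vasopressin moves to the apical membrane, read 4.69, 4.19 and 3.99 in WT and 3.79, 4.31 and 4.00 in KO on the junction probe printed above. WT 2 was the highest array and KO 1 the lowest, and the other 4 arrays of both genotypes were interleaved. The difference was -0.26 (SE 0.23, interval -0.81 to 0.30, adjusted p = 0.598), and its sign turned to 0.043 when blocked by slide side. Aqp2 varied by 1.86-fold between the highest and lowest array, and its SD within genotypes was at the 87.8th percentile of bright probes.

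Aqp3, a basolateral channel of the same cells that also passes glycerol, read 4.39, 4.54 and 4.51 in WT and 4.25, 4.23 and 4.61 in KO (NM_016689, chr4:41039962-41040021). KO 1 and KO 2 were lowest and KO 3 highest, so that the KO arrays enclosed those of WT. The difference was -0.11 (SE 0.14, interval -0.45 to 0.22, adjusted p = 0.717).

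Aqp4, the other basolateral channel and the main water channel of brain astrocytes, had the largest difference among the representative probes. The representative probe (NM_009700, chr18:15547951-15548010) read 1.65, 1.0 and 1.74 in WT and 0.53, 1.25 and 0.49 in KO. KO 1 and KO 3 lay below every WT array, but KO 2 lay above WT 3. The difference was -0.71 (SE 0.29, interval -1.41 to 0.00037, adjusted p = 0.279), which just missed the unadjusted threshold and passed it in 7 of 19 alternatives.

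A second probe of the same transcript (chr18:15551966-15552025) read -0.27, -0.93 and -0.61 in WT and -1.48, -0.91 and -1.59 in KO. The arrays kept much of the same order, with KO 2 again just above WT 3. On this probe Aqp4 fell by 0.72 (SE 0.25, interval -1.33 to -0.12, adjusted p = 0.279). Relative to the median of all probes the fall was 0.84, but the probe is bright and the median of bright probes was 0.0033. The call was lost when the arrays were blocked by slide side, with the methods' t-test and on leaving out WT 2, WT 4, KO 1 or KO 3, and held without WT 3 or KO 2. The arrays on which this probe was lowest within each genotype were WT 3 and KO 1 and KO 3. They were also the lowest for the NM_030683 probes of Slc14a2 and for the average of the hypertonicity genes described further on. The part of these arrays in the Aqp4 value was not tested. One more probe, on XM_011246812, read -3.19, -3.15 and -3.02 in WT and -3.42, -2.99 and -3.41 in KO, with a difference of -0.15 (adjusted p = 0.641). There KO 1 and KO 3 were again the lowest arrays and KO 2 was the highest. The probe on XM_011246813 was not well above background on any array.

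Aqp1, the constitutive channel of the proximal tubule and descending thin limb, read 6.81, 6.74 and 7.10 in WT and 7.03, 6.96 and 7.01 in KO (NM_007472, chr6:55298480-55298539). WT 4 was the highest array, and the KO arrays lay between it and the other 2 WT arrays. The difference was 0.11 (SE 0.13, interval -0.20 to 0.42, adjusted p = 0.689). It was close to the median difference of all probes, while that of the bright probes was 0.0033. Its sign turned to -0.10 when blocked by slide side.

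Aqp7, a water and glycerol channel of the straight proximal tubule and of fat cells, read 0.08, 0.03 and -0.07 in WT and 0.17, 0.07 and 0.20 in KO. KO 1 and KO 3 lay above the WT range and KO 2 within it. The difference was 0.13 (SE 0.10, interval -0.12 to 0.38, adjusted p = 0.543), and 0.04 on the second probe (adjusted p = 0.890). The fat cell markers had none of 6 genes called, a median difference of 0.91 and a summed level of 4.72 to 6.18 in WT and 5.28 to 7.44 in KO, highest on KO 2. The S3 segment markers had none of 3 called, a median of 0.35 and summed levels of 6.36 to 6.5 and 6.56 to 6.82. Their part in the Aqp7 values was not tested.

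Aqp6, an anion-permeable channel in vesicles of acid-secreting intercalated cells, read 3.42, 3.27 and 3.40 in WT and 3.68, 3.42 and 3.42 in KO (NM_175087, chr15:99435849-99435908). KO 1 was the highest array, while KO 2 and KO 3 lay level with WT 2. The difference was 0.14 (SE 0.12, interval -0.15 to 0.43, adjusted p = 0.588). The second NM_175087 probe differed by 0.03 (SE 0.10, adjusted p = 0.908), and the stop-codon probe printed above was not well above background on any array. Intercalated cell markers had a median difference of 0.06, with none of 7 called.

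Aqp11, an aquaporin of the endoplasmic reticulum in proximal tubule cells, read 2.86, 2.91 and 3.12 in WT and 2.99, 2.83 and 3.06 in KO (chr7:104874889-104874948). The genotypes were interleaved from the lowest array, KO 2, to the highest, WT 4. The difference was 0.00 (SE 0.12, interval -0.30 to 0.30, adjusted p = 0.998), and its sign turned to -0.019 under quantile normalization and to -0.016 with scaling by the array median. On the junction probe printed above the difference was 0.01 (SE 0.10, interval -0.23 to 0.25, adjusted p = 0.972), and over both probes the intervals ran from 0.813-fold to 1.23-fold.

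**Figure D2:**
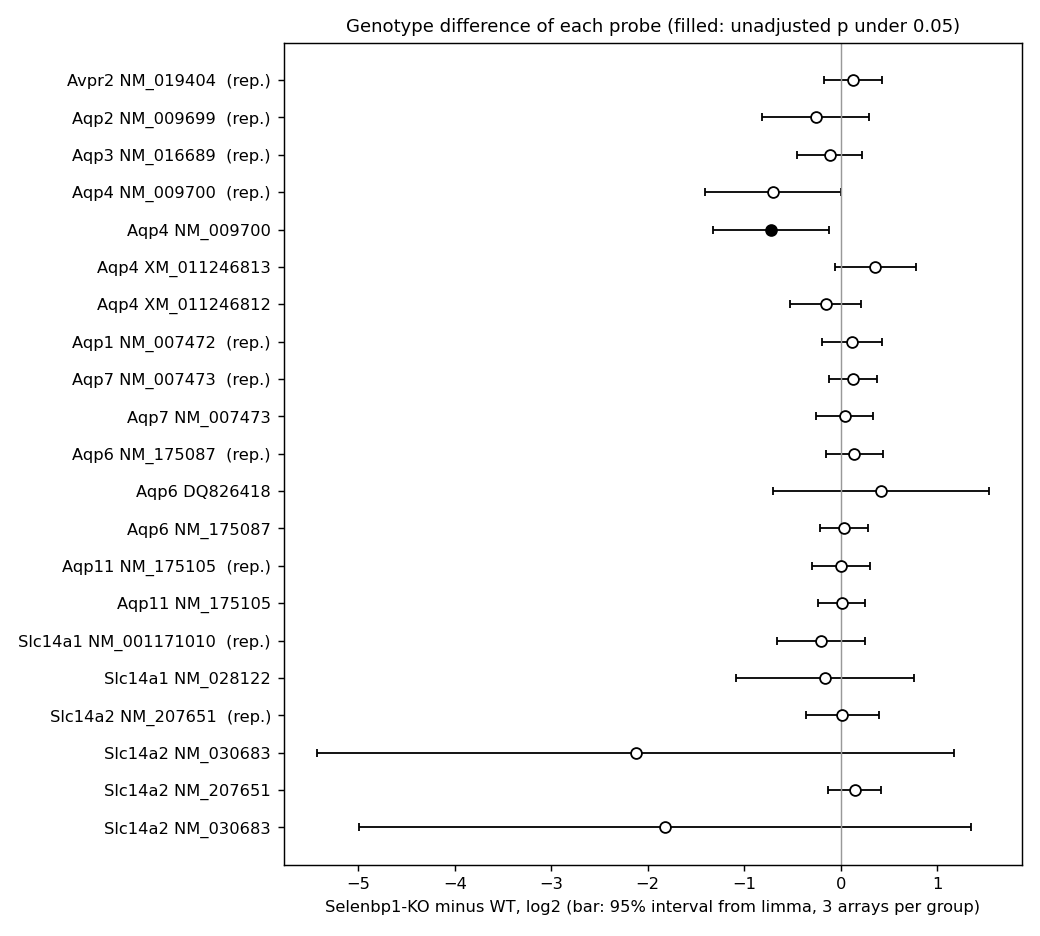
Difference KO minus WT (x axis, log2) of each of the 21 probes with its 95% interval from limma (3 arrays per genotype); "rep." marks the representative probe of a gene and a filled point an unadjusted p under 0.05. The only filled point is the second Aqp4 probe at -0.72, and the NM_030683 probes of Slc14a2 have the widest intervals.

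Slc14a1 encodes the urea transporter of the descending vasa recta and of red blood cells. Its representative probe (NM_001171010, chr18:78296835-78296894) read -0.61, -0.94 and -0.97 in WT and -1.12, -0.73 and -1.29 in KO. WT 2 and KO 2 were the highest arrays and KO 1 and KO 3 the lowest. The difference was -0.21 (SE 0.19, interval -0.66 to 0.25, adjusted p = 0.612). The second probe (NM_028122) read -1.06, -1.83 and -1.50 in WT and -2.02, -0.84 and -2.02 in KO, with a difference of -0.16 (SE 0.38, adjusted p = 0.868). Here too KO 2 and WT 2 led, and KO 1 and KO 3 were lowest.

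Red blood cell markers moved the other way, and 5 of 6 were called higher in KO, where 6.47% of all probes were called higher. Their median difference was 0.71, and their summed level ran from 9.0 to 9.40 in WT and from 9.48 to 10.05 in KO. KO 2 had the highest summed level. Aqp1 is also a red cell gene, and the part of these cells in the Aqp1 and Slc14a1 values was not tested. The 5 endothelial markers had a median difference of 0.02, with none called. In bulk kidney RNA, fewer cells of a type and less RNA per cell cannot be told apart.

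Slc14a2 encodes the renal tubular urea transporters. Some of its forms serve the inner medullary collecting duct, and a form from an internal promoter serves the descending thin limb. The 4 probes fell into pairs that behaved differently. The 2 probes designed on NM_207651 (chr18:78342911-78342970 and chr18:78352254-78352313) lie on the minus strand, toward the end of the gene relative to the other pair. The 2 probes on NM_030683, labelled transcript variant 2 in the files, lie upstream (chr18:78379981-78380040 and chr18:78402497-78402556). Which protein form each accession encodes was not matched here.

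The representative NM_207651 probe read 2.24, 2.03 and 2.40 in WT and 2.05, 2.43 and 2.23 in KO. The genotypes were interleaved, with KO 2 highest and WT 3 lowest. The difference was 0.01 (SE 0.15, interval -0.36 to 0.39, adjusted p = 0.975), and its sign turned to -0.0022 with scaling by the array median and to -0.17 when blocked by slide side. The second probe of the pair differed by 0.14 (SE 0.11, adjusted p = 0.542).

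The brighter NM_030683 probe read 1.82, -0.61 and 1.49 in WT and -3.06, 1.70 and -2.32 in KO. WT 2, KO 2 and WT 4 were high and WT 3, KO 3 and KO 1 low, so that the wide gap ran within both genotypes. The highest and lowest arrays differed by 29.4-fold, and the SD within genotypes, 2.03, was at the 99.9th percentile of bright probes. The difference between genotypes was -2.13 (SE 1.35, interval -5.43 to 1.18, adjusted p = 0.431).

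The other NM_030683 probe read -2.27, -4.76 and -2.73 in WT and -7.15, -2.41 and -5.66 in KO. It had the same order of arrays, but was well above background only on the 3 WT arrays and 1 KO array, so that its lowest KO readings are only bounds. The difference as measured was -1.82 (SE 1.30, adjusted p = 0.493). On both probes WT 3 read apart from the other WT arrays, as KO 2 did from the other KO arrays. Without KO 2 the difference was -3.59 on the brighter probe and, as measured, -3.15 on the other. Both then passed the unadjusted threshold (limma adjusted p = 0.523 each), and leaving out any other array gave no call on them.

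**Figure D3:**
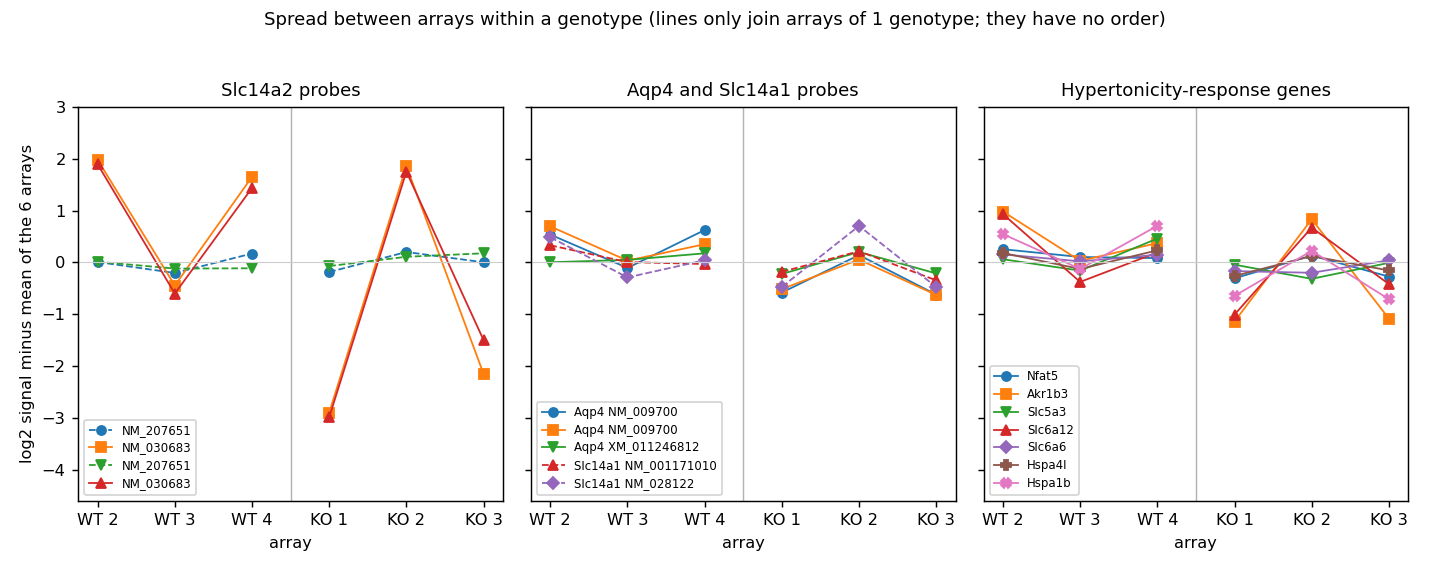
Log2 signal minus the mean of the 6 arrays (y axis) by array (x axis) for the Slc14a2 probes, the Aqp4 and Slc14a1 probes and the genes of the hypertonicity response; lines join arrays of 1 genotype only. The NM_030683 probes of Slc14a2 are high on WT 2, WT 4 and KO 2 and low on WT 3, KO 1 and KO 3, while the NM_207651 probes stay near 0.

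The response to hypertonicity is driven by Nfat5, which turns on genes for organic osmolytes and heat shock proteins in the salty medulla. None of 7 such genes was called, all 7 were lower in KO, and the median difference was -0.30. Of bright probes, 49.2% were lower in KO, and of all tested probes 33.8%. Averaged over the list, the arrays deviated from the WT mean by 0.22, -0.31 and 0.09 in WT and by -0.73, -0.01 and -0.60 in KO. KO 1, KO 3 and WT 3 were thus the lowest arrays by this average, as on the NM_030683 probes of Slc14a2. Not every gene of the list had this order: Slc5a3 (1.17) and Slc6a6 (4.27) were lowest on KO 2. Akr1b3, the aldose reductase that makes sorbitol, read 5.93, 4.98 and 5.32 in WT and 3.80, 5.78 and 3.86 in KO. Its difference was the largest of the list at -0.93 (SE 0.58, adjusted p = 0.422), and KO 2 lay within the WT range.

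Transcription factors of the collecting duct numbered 8, and all were lower in KO, with a median of -0.07 and 1 called. Of bright probes, 49.2% were lower in KO. The factors other than Elf5 and Gata3 differed by only -0.02 to -0.09. Elf5, an ETS factor of principal cells, read 0.74, 0.18 and 0.80 in WT and -0.50, 0.34 and -0.54 in KO. KO 1 and KO 3 lay below every WT array, but KO 2 lay above WT 3, as for Aqp4. Elf5 fell by 0.80 (SE 0.30, adjusted p = 0.279). The call was lost with quantile normalization, the authors' table, trend and robust settings, the methods' t-test, blocking by slide side and the mean of a gene's probes. Leaving out WT 2, WT 4, KO 1 or KO 3 also removed it. Elf5 was the only call among the 48 pathway genes. Of all probes, 7.98% were called in either direction and 1.51% were called lower. The Elf5 probe is bright, and of bright probes 5.65% were called in either direction. Of the 48 genes, 18 were higher and 30 lower in KO, with a median of -0.04. Over all tested probes 33.8% were lower, and over bright probes 49.2%. The GATA factors of the list are named here for the promoter match, chosen after their values were seen. Gata3 differed by -0.27 (SE 0.18, adjusted p = 0.436) and Gata2 by -0.02 (SE 0.12, adjusted p = 0.962).

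Vasopressin and cAMP signalling genes had none of 16 called, 9 higher and 7 lower, with a median of 0.04. The largest difference was 0.38 (SE 0.52, adjusted p = 0.754) for the adenylyl cyclase Adcy3, which was well above background on 1 array of each genotype. Genes of Aqp2 vesicle traffic had none of 12 called, 5 higher and 7 lower, with a median of -0.01. Vamp8, a SNARE of vesicle fusion, had the largest difference, 0.17 (SE 0.09, adjusted p = 0.329). Aquaporins outside the group had none of 5 called, and the largest difference, 0.39 for the lens aquaporin Mip, came from a probe that no array measured well above background.

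The principal cell markers, which include the sodium channel subunits, had none of 6 called, a median difference of 0.02 and summed levels of 5.54 to 5.76 in WT and 5.55 to 5.78 in KO. Those of the thick ascending limb had none of 6 called and a median of 0.07, and those of the S1 and S2 proximal tubule none of 5 and -0.01. The thin limb markers had none of 7 called and a median of -0.13, with summed levels of 5.71 to 6.17 in WT and 5.22 to 6.27 in KO. Among them Slc4a11 (0.96, 0.16 and 0.86 in WT and 0.21, 1.18 and 0.14 in KO) and Cryab (6.0, 5.51 and 5.79 in WT and 4.92, 6.11 and 5.0 in KO), named after their values were seen, were low on WT 3, KO 1 and KO 3. These are the arrays that were low on the NM_030683 probes of Slc14a2. The urothelial markers of the renal pelvis had none of 4 called, a median of 0.59 and summed levels of 3.55 to 3.86 in WT and 3.59 to 5.13 in KO, highest on KO 2. The kidney tubule markers Umod, Slc12a1, Slc34a1 and Scnn1a were well above background on all arrays. The principal cell marker Scnn1b was so on only 2 arrays of each genotype. The part of these cells in the spread of Slc14a2 and Aqp4 was not tested.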

How the data were processed

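Left kidney RNA of 3 WT and 3 Selenbp1-KO mice was labelled with Cy3 and read on 6 one-colour Agilent arrays, per the labels. The authors deposited scanner files with processed signal intensity and a detection p-value for each of 62976 spots, and a table of linear values per probe that served as an alternative. The table's columns ranked the probes as the scanner files did and had a median of 24.4 for every array, so it was read as quantile normalized, and its scaling unit is unknown. The labels name Feature Extraction 9.5.1.1 and the file headers 10.7.1.1, and the array designs named differ too. Tissue storage and RNA extraction are described in different ways across labels and methods.

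Probe genes and mm9 positions come from the files, and RefSeq tables matched 32994 accessions, 1535 of them under another name. Control spots and outlier-flagged spots were left out, log2 intensity was taken relative to the array's 75th percentile, and spots of a probe were averaged. Probes needed at least 1 array with a detection p under 0.05, and the 56097 that had it were fitted together with limma 3.58.1 in R 4.3.3 (lmFit and eBayes, two-sided), with no covariate. The small number of arrays limits the precision. An exact permutation test of 3 against 3 cannot go below p = 0.1, so none is given. Labels name separate mice only by number, so p-values measure the spread between these samples. The fit was tested on simulated data.

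A summed level is log2 of the sum of the linear scaled signals of a list's probes. Named genes were all 10 genes with every probe, Selenbp1, list genes with an unadjusted p under 0.05 and the gene of each pathway list with the largest difference. The genes and lists were chosen with earlier results of these data known. Alternatives were other background correction, scaling and filters, limma with trend and robust settings, the methods' t-test, slide side or replicate number as a block, the mean of a gene's probes and leaving out each array. All samples were used. The values of 1 marker gene are not reported here. Promoters are from RefSeq (GRCm38.p6), and 7 of the 10 genes were searched. Those on chromosome 18 (Aqp4, Slc14a1 and Slc14a2) were left out.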

Additional observations from a re-analysis of the deposited data

How the results depend on the processing

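The number of called probes among the 21 moved from 1 to 3 with normexp correction, scaling by the array median or the replicate block, to 2 with the well-above-background filter or no filter and to 0 with the methods' t-test. The additional calls include probes that no array measured well above background: Aqp6 on DQ826418 with normexp, and Aqp4 on XM_011246813, higher in KO, with median scaling and the replicate block. Blocked by slide side the count stayed at 1, but the call passed to the DQ826418 probe. Leaving out 1 array gave 0 to 4: 0 without WT 2, KO 1 or KO 3, 1 (another Aqp4 probe) without WT 4, 2 without WT 3 and 4 without KO 2. The number of called genes moved from 0 to 1, always Aqp4, with normexp, median scaling, either of these filters and the replicate block, and was 0 to 1 on leaving out an array. Aqp4 was called in 7 of 19 alternatives (lowest adjusted p = 0.141), with a difference from -0.98 to -0.31. Called pathway genes moved from 1 to 4 with normexp, 3 with quantile normalization, median scaling, the authors' table or the replicate block, 2 with the well-above-background filter, the t-test or the slide side, 5 with trend and robust settings and 0 with gene means, and were 0 to 6 on leaving out an array. The mean of a gene's probes gives no count of probes. Signs turned for Aqp11 (-0.019 with normexp, quantile normalization and the authors' table, -0.016 with median scaling, -0.15 with the slide side, -0.049 to 0.078 on leaving out an array), Slc14a2 (-0.014 with normexp, -0.0022 with median scaling, -0.17 with the slide side, -0.95 with gene means, -0.084 to 0.11 on leaving out an array), Aqp1 (-0.10) and Aqp2 (0.043), the last 2 with the slide side. The cause was not tested. Blocked by slide side, the contrast rests on WT 4 alone.

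The numbers 2 and 3 occur in both genotypes. Deviations of same-numbered arrays correlated at 0.17 and 0.19 over 28509 probes, and nothing in the labels ties them, so they were not taken as pairs. Over all probes the replicate block moved the calls from 4479 to 18430. Without WT 4, 17585 probes were called, 12522 of them after adjustment, among which was the Aqp4 probe on XM_011246813 that is not well above background. In that run the WT arrays all lay on one side of the slide and the KO arrays on the other. Its calls therefore cannot be assigned to genotype rather than slide side.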
